A study of Mus musculus with 16 samples.

Results

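Mb, Lrrc10, Hspb7, Mib1, Ephb4 and Irf2bp2 are 6 mouse genes that were chosen because a merged region at each of them holds a peak of every one of 8 ChIP-seq peak lists, 4 made with an antibody against Meis1/2 and 4 with an antibody against Hoxb13. In chromatin immunoprecipitation with sequencing (ChIP-seq), an antibody pulls down a protein with its DNA, and a peak is a stretch where that DNA piles up over background. The 6 genes are among 22 of 21887 protein-coding genes (0.101%) with such a region within the gene body or 5 kb on either side. Peaks were merged wherever they shared at least 1 bp, and 18 of the 21202 merged regions (0.0849%) held a peak of all 8 lists. Because the presence of a peak in each list chose the genes, that presence is described here and not tested.

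Hearts were taken at postnatal day 15 from mice that had been injected from postnatal day 7 for 7 days. One group received paromomycin and neomycin together (Paro/Neo), 2 aminoglycoside antibiotics, at 150 mg/kg 2 times a day into the peritoneum, and the other received phosphate-buffered saline as vehicle. For each antibody there are 2 Paro/Neo and 2 vehicle libraries of ventricular tissue. The labels state neither strain nor sex. They speak of 2 hearts used as duplicates and leave unsaid how hearts map to libraries, so a p-value over libraries measures the spread between these libraries, which may be technical. The Meis1 antibody also recognises Meis2, and the title style divides the samples into a Meis1 and a Hoxb13 set, so antibody and set cannot be told apart. In bulk tissue, fewer cells with a bound site and less binding per cell cannot be told apart either.

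Lists held 1541 and 1025 Meis1 peaks in Paro/Neo replicates 1 and 2, against 3529 and 3176 in vehicle replicates 1 and 2. Hoxb13 lists held 821 and 16963 peaks in Paro/Neo replicates 1 and 2, against 5202 and 1121 in vehicle replicates 1 and 2. Hoxb13 Paro/Neo replicate 2 stands apart by its length and is left out in turn where counts of Hoxb13 regions rest on it. The 2 second-replicate Meis1 lists were deposited under names that carry the letter of the opposite group. The labels were followed, and the differences with these libraries exchanged are given beside the treatment comparison. Sequencing depth is unknown, so the absence of a peak has no detection limit. All 6 genes had a peak in each list by choice, whereas over all protein-coding genes the share with a peak was 4.07% and 2.83% for Meis1 in Paro/Neo replicates 1 and 2, against 8.59% and 8.21% in vehicle replicates 1 and 2. For Hoxb13 it was 4.2% and 46.5% in Paro/Neo replicates 1 and 2, against 24.2% and 5.79% in vehicle replicates 1 and 2. As a check of the labelled tissue, all 8 cardiomyocyte marker genes examined had a Hoxb13 region in at least 2 libraries, where 22.9% of all genes did. Meis1 regions in at least 2 libraries lay at 5 of these 8 genes, against 6.19% of all genes. In all 4 Meis1 libraries such a region lay at 1 of the 8, Myl2, and at 2 of 4 endothelial markers, Pecam1 and Tek. Over all genes this share was 1.75%. All 8 cardiomyocyte markers also had a Hoxb13 region in at least 2 of the 3 libraries left without Paro/Neo replicate 2, against 6.56% of all genes. Of the endothelial markers, 3 had a Hoxb13 region in at least 2 libraries, but 0 without Paro/Neo replicate 2. Of 4 leukocyte markers 1, Cd68, had such a Hoxb13 region with and without that library, and of 4 fibroblast markers 1, Dcn, had it with that library and 0 without it. None of these last 8 genes had a Meis1 region in at least 2 libraries.

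Meis1 is a homeodomain transcription factor of the TALE family that binds DNA through a short core, TGACAG, often beside Pbx or Hox proteins, and Hoxb13 is a posterior Hox factor. Both have been studied in mouse cardiomyocytes for their part in the exit from the cell cycle after birth. Of the 6 genes, 3 encode proteins of the heart muscle cell. Mb encodes myoglobin, the oxygen-binding haem protein of striated muscle. Lrrc10 encodes a leucine-rich repeat protein of the cardiomyocyte that binds actin and α-actinin, and Hspb7 encodes a small heat shock protein of heart and vessels. Another 2 serve signalling between cells. Mib1 encodes a ubiquitin ligase that drives the uptake of Notch ligands in the cell that sends the signal, and Ephb4 encodes a receptor tyrosine kinase of venous endothelium whose ligand is ephrin-B2. Irf2bp2 encodes a nuclear cofactor that binds the transcription factor IRF2.

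At 5 of the 6 genes no base lay under a peak of all 8 lists. A stretch under peaks of all 4 Meis1 lists and at least 1 stretch under peaks of all 4 Hoxb13 lists was present at each gene, but these overlapped at Mb alone, where 216 bp lay under a peak of all 8 lists. The gap between the nearest such stretches was 493 bp at Lrrc10, 919 bp at Ephb4, 2194 bp at Mib1, 2497 bp at Irf2bp2 and 7766 bp at Hspb7. The most lists with a peak over any one base were 8 at Mb, 6 at Mib1 and Ephb4, and 5 at Lrrc10, Hspb7 and Irf2bp2. Over all protein-coding genes, 14 of 21887 (0.064%) had a base under a peak of all 8 lists, Mb among them.

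**Figure D1:**
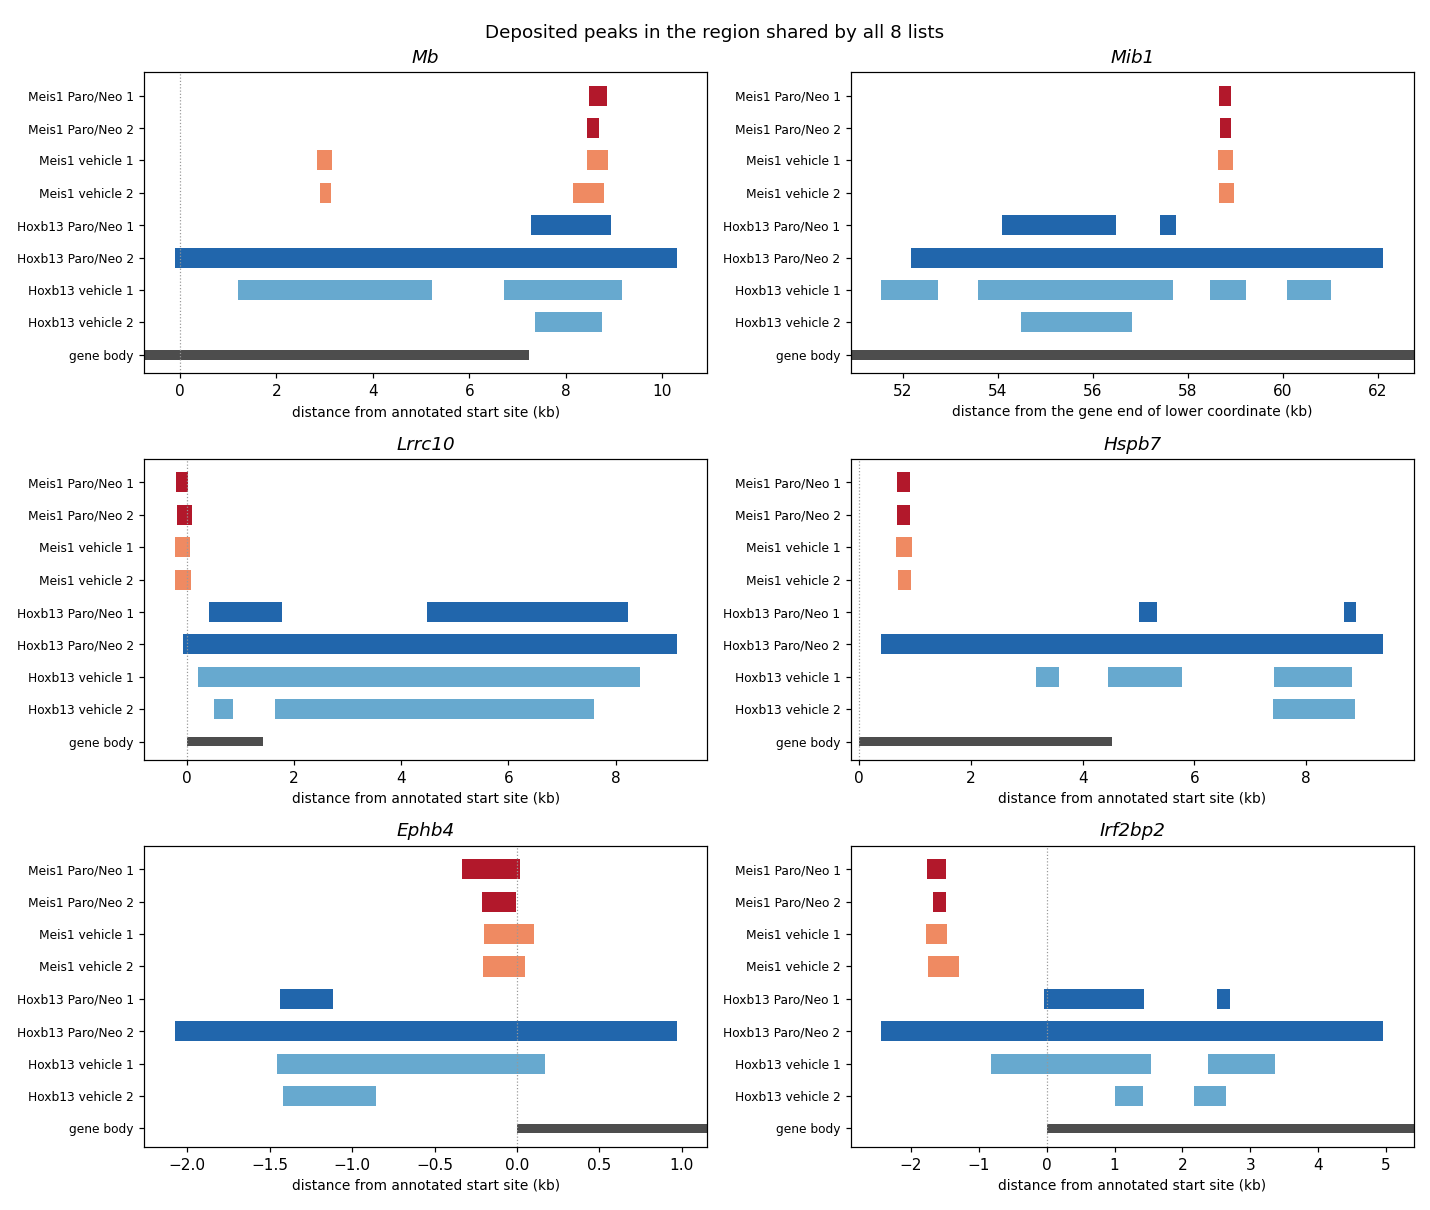
Deposited peaks of each library (bars, 1 row per library) in the region shared by all 8 lists, by distance in kb from the annotated start site, or for Mib1 from the gene end of lower coordinate; at Mb the zero is the start site nearest to the region. The short Meis1 bars line up within each gene, apart from a further bar of each Meis1 vehicle library inside Mb. The peak of Hoxb13 Paro/Neo replicate 2 spans nearly the whole region at each of the 6 genes.

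The wide peaks of Hoxb13 Paro/Neo replicate 2 joined the pieces. In that library 1 peak of 3047 to 10409 bp lay over all or part of the Meis1 stretch at each of the 6 genes. Of the 609 stretches under all 4 Meis1 lists in the genome, 43.3% were touched by a peak of this library. Hoxb13 vehicle replicate 1 reached the Meis1 stretch at 3 of the 6 genes (Mb, Mib1 and Ephb4), where 7.72% of the 609 were reached. Hoxb13 Paro/Neo replicate 1 and vehicle replicate 2 reached it at Mb alone, against 2.13% and 2.3% of the 609. Peaks of all 4 Hoxb13 lists touched 1.97% of them. Since the long peaks of replicate 2 helped to choose the genes, nothing is read from these shares. Without Hoxb13 Paro/Neo replicate 2, a region with a peak of all 7 remaining lists was left at 2 of the 6 genes, Mb and Ephb4. Leaving out any other single library kept all 6. Leaving out a list also drops the demand for its peak. A gene could thus be lost only where peaks of that list joined the region.

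**Figure D2:**
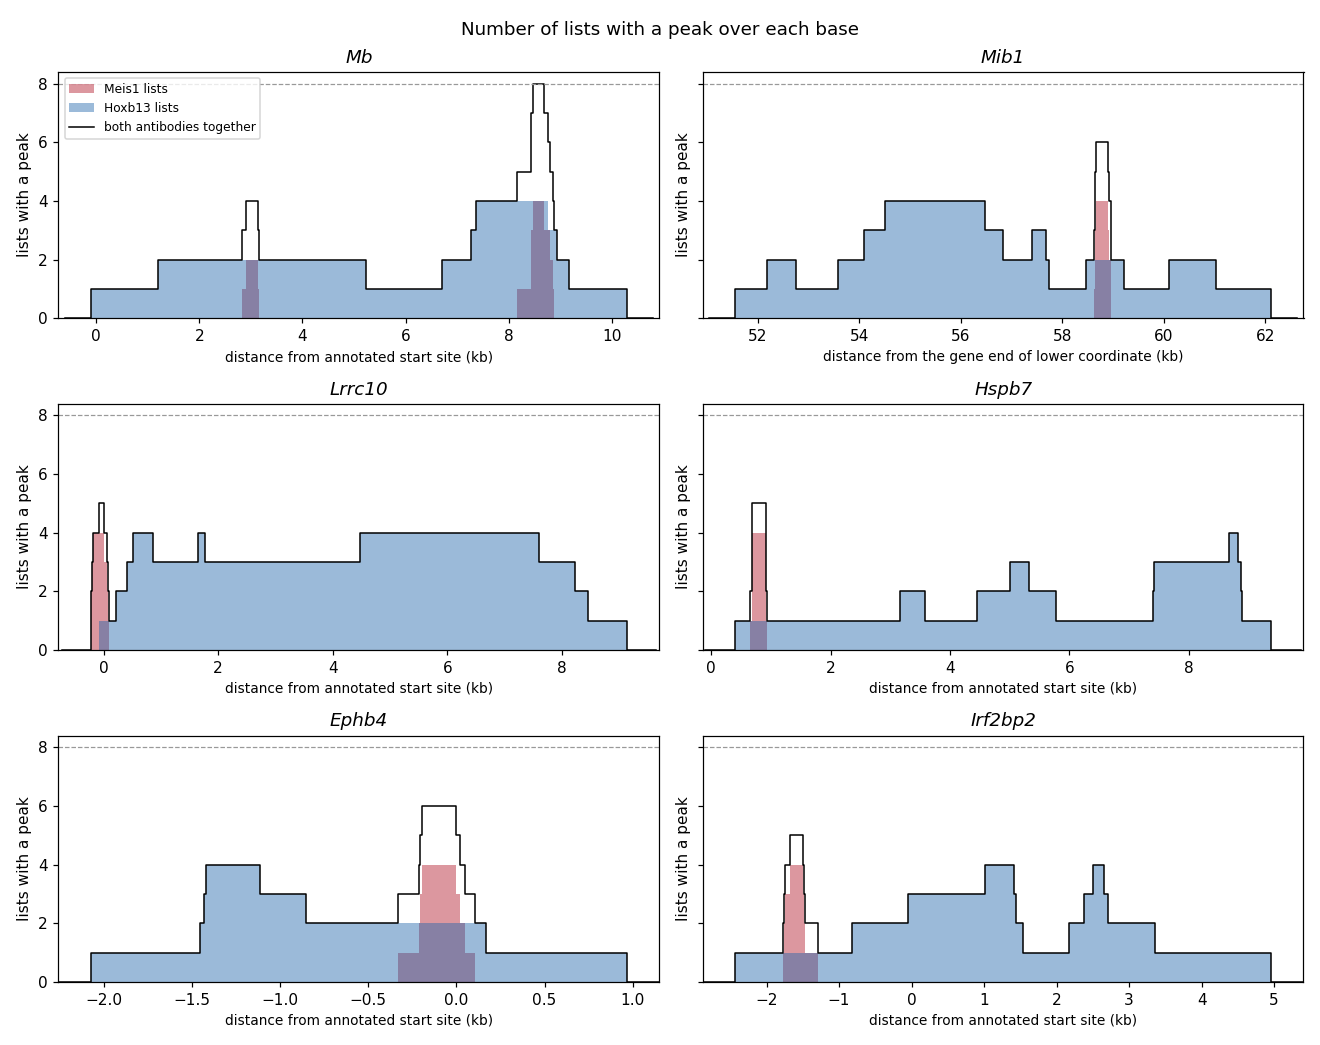
Number of lists with a peak over each base (y axis) by distance in kb from the start site, or for Mib1 from the gene end of lower coordinate, with Meis1 lists in red, Hoxb13 lists in blue and both together as a black line; the dashed line marks 8 lists. The black line reaches 8 at Mb, 6 at Mib1 and Ephb4, and 5 at Lrrc10, Hspb7 and Irf2bp2.

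Meis1 peaks at these genes were short and Hoxb13 peaks long. The 26 Meis1 peaks in the shared regions were 192 to 646 bp wide, with a median of 274 bp, and 1 of them was among the widest 10% of its own list. The 37 Hoxb13 peaks were 202 to 10409 bp wide, with a median of 1461 bp, and 24 of them were among the widest 10% of their lists. For comparison, 9.66% of the Meis1 peaks and 31% of the Hoxb13 peaks in regions called in all 4 lists of the antibody were among the widest 10%. Wide Hoxb13 peaks helped to join the regions by which the genes were chosen, so nothing is read from the Hoxb13 share. The shared regions measured 3047 bp at Ephb4 and 7399 to 10579 bp at the other 5 genes. The 12 further regions with all 8 lists had a median width of 1071.5 bp, and 11 of them held a base under a peak of every list. They include the region at Cdk8 and those with no protein-coding gene within 5 kb. The strongest peaks there had mean percentiles of fold within the lists, higher being stronger, of 0.7 to 1.2.

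The Meis1 stretch lay over or just before the start site at 2 genes, and the DNA there is shown because it is the sequence under the Meis1 peaks. It ran from -180 to 15 bp around the start site of Lrrc10 and from -198 to -5 bp at Ephb4. A peak of all 4 Meis1 lists touched 42 of 32851 promoter windows (0.128%), each from 250 bp before to 50 bp after a start site. Irf2bp2 is shown beside them because 3 Hoxb13 lists and no Meis1 list had a peak over its promoter window. A peak of all 4 Hoxb13 lists touched 0.779% of the windows, and none of those of the members. The 250 bases before each start site are printed 5′ to 3′ on the strand of the gene, from RefSeq on GRCm38.p6 (the coordinates of mm10), with matches to the motifs searched in capitals.
Lrrc10, chr10:117045091-117045340, plus strand: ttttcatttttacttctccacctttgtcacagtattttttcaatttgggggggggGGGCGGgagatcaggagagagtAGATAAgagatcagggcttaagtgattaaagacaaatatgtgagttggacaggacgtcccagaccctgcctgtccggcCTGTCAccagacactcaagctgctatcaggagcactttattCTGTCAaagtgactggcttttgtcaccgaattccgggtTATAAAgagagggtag
Ephb4, chr5:137349859-137350108, plus strand: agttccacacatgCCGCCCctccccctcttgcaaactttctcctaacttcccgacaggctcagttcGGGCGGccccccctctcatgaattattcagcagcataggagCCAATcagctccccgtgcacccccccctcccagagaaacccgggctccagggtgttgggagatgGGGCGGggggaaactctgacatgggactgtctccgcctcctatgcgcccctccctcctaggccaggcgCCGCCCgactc
Irf2bp2, chr8:126593987-126594236, minus strand: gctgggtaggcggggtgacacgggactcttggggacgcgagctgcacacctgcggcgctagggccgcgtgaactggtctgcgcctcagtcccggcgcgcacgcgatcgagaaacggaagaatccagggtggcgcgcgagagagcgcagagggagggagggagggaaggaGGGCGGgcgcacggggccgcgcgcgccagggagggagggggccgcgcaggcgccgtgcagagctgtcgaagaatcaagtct
The search covered both strands and 8 motifs. They were the Meis core TGACAG, the Hoxb13 motif CCAATAAA, the general Hox motif TTTATNG, the GATA motif AGATAA, the GC box GGGCGG, the CCAAT box, the TATA box TATAAA and the MEF2 box. CCAATAAA contains CCAAT, and a stretch that matches both would count for each.

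The Lrrc10 promoter window held TGACAG 3 times, at -95 to -90 and -54 to -49 bp on the other strand and at 38 to 43 bp, beyond the printed bases, on the strand of the gene. The first pair lies within the stretch under all 4 Meis1 lists. At least 1 copy was present in 19.2% of all 32851 windows, and 3 or more in 0.204%. Of the 42 windows touched by all 4 Meis1 lists, 66.7% held at least 1 copy. The Ephb4 window, also touched by all 4 Meis1 lists, held none, but it had 4 GC boxes and 1 CCAAT. A GC box was present in 35.7% of all windows and in 71.4% of the 42. The Irf2bp2 window held 1 GC box. Its G and C content was 71.7% with 39 CpG, against 64.7% with 14 at Ephb4, 49.3% with 6 at Lrrc10, and medians of 52.7% and 7 over all windows. The Lrrc10 window also held 1 AGATAA, 1 GC box and 1 TATAAA, the last at -16 to -11 bp. The Hoxb13 motif CCAATAAA, present in 1.12% of all windows, was found in none of the windows of the members. A match is a description of the letters and not evidence of a bound site. RefSeq windows were matched for 5 of the 6 genes, and none is used for Mib1.

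At Mb (chromosome 15, 77015487 to 77050668, minus strand) both factors were called just beyond the 3′ end of the gene. Meis1 peaks lay at 77013872 to 77014252 and 77014037 to 77014290 in Paro/Neo replicates 1 and 2, against 77013850 to 77014293 and 77013926 to 77014571 in vehicle replicates 1 and 2. Their deposited folds of 6.74 and 5.93 in Paro/Neo and 7.01 and 7.40 in vehicle ranked them 247 of 1541, 286 of 1025, 476 of 3529 and 388 of 3176 in their own lists. Each Meis1 list thus placed this site in its upper part, with percentiles of fold within the list, higher being stronger, from 72.2 to 87.8. The Hoxb13 peaks over the same bases were 1664 and 10409 bp wide in Paro/Neo replicates 1 and 2, against 2448 and 1396 bp in vehicle replicates 1 and 2. They ranked 37 of 821 and 187 of 16963 in Paro/Neo, against 53 of 5202 and 239 of 1121 in vehicle. The stretch common to all 8 lists, 77014037 to 77014252, lies 8475 to 8690 bp downstream of the nearest of 3 annotated start sites. A further Meis1 peak inside the gene was called in both Meis1 vehicle libraries and in neither Meis1 Paro/Neo library. It lay at 77019580 to 77019892 in vehicle replicate 1 (rank 306) and at 77019590 to 77019830 in vehicle replicate 2 (rank 1006). The start sites themselves carried no Meis1 peak, and 1 Hoxb13 list, that of Paro/Neo replicate 2, had a peak over 2 of the 3.

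At Lrrc10 (chromosome 10, 117045341 to 117046768, plus strand) Meis1 peaks covered the start site in all 4 libraries, and Hoxb13 peaks lay over the gene and the DNA beyond its 3′ end. The Hoxb13 peak of Paro/Neo replicate 2 began at -76 bp, and those of the other 3 lists began after the start site. Meis1 peaks ran from -196 to 15 and from -180 to 92 bp in Paro/Neo replicates 1 and 2, against -217 to 57 and -225 to 72 bp in vehicle replicates 1 and 2. They ranked 827 of 1541 and 233 of 1025 in Paro/Neo, against 233 of 3529 and 204 of 3176 in vehicle. Paro/Neo replicate 1 was the list that placed the site lowest, at percentile 46.4. A second Meis1 region upstream of the gene (117042405 to 117042645) was called in Paro/Neo replicate 1 and in both vehicle libraries. A Hoxb13 peak of Paro/Neo replicate 2, 117042377 to 117044264, covered that Meis1 region. The longest stretch under all 4 Hoxb13 lists measured 3125 bp, from 117049820 to 117052944, and lies outside Lrrc10 and partly within the neighbouring Cct2, which encodes a subunit of the CCT chaperonin (117050997 to 117063852). A shorter one of 347 bp, from 509 to 855 bp after the start site, lies within Lrrc10. In these lists the strongest Hoxb13 peaks of the region ranked 223 of 821 and 135 of 16963 in Paro/Neo, against 221 of 5202 and 209 of 1121 in vehicle.

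At Hspb7 (chromosome 4, 141420779 to 141425310, plus strand) the stretches under all 4 lists of each antibody lay farthest apart. Meis1 peaks inside the gene shared the stretch 141421468 to 141421687, from 689 to 908 bp after the start site, in all 4 libraries. They ranked 661 of 1541 and 616 of 1025 in Paro/Neo, against 246 of 3529 and 468 of 3176 in vehicle. The single stretch under all 4 Hoxb13 lists, 144 bp from 141429454 to 141429597, lies past the 3′ end, between Hspb7 and Srarp, whose nearest base is 2509 bp from the region. The strongest Hoxb13 peaks of the whole region ranked 336 of 821 and 514 of 16963 in Paro/Neo, against 553 of 5202 and 573 of 1121 in vehicle. Their −log10 q was 1.89 and 7.13 in Paro/Neo replicates 1 and 2, against 4.00 and 1.77 in vehicle replicates 1 and 2. The one of vehicle replicate 1, 141425226 to 141426560, covered the 3′ end of the gene and not the 144 bp stretch. In that library the Hoxb13 peak over the stretch, 141428202 to 141429597, ranked 1613 with a −log10 q of 2.00. Paro/Neo replicate 1 also had a Hoxb13 peak at 141425780 to 141426100, nearer the gene, at rank 479. When peaks under a −log10 q of 2 were dropped, Hspb7 no longer had a region of all 8 lists, while the other 5 genes did. Both vehicle Meis1 libraries also had a peak upstream of the start site, within 141419958 to 141420371, which was in neither Meis1 Paro/Neo library. A Hoxb13 peak of Paro/Neo replicate 2, 141419850 to 141420400, covered the same bases at rank 8857 of 16963. In vehicle replicate 1 the Meis1 peak was near the bottom of the list, at rank 3516 of 3529 with a −log10 q of 1.15. In vehicle replicate 2 it ranked 1627 of 3176, with a −log10 q of 3.97.

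**Figure D3:**
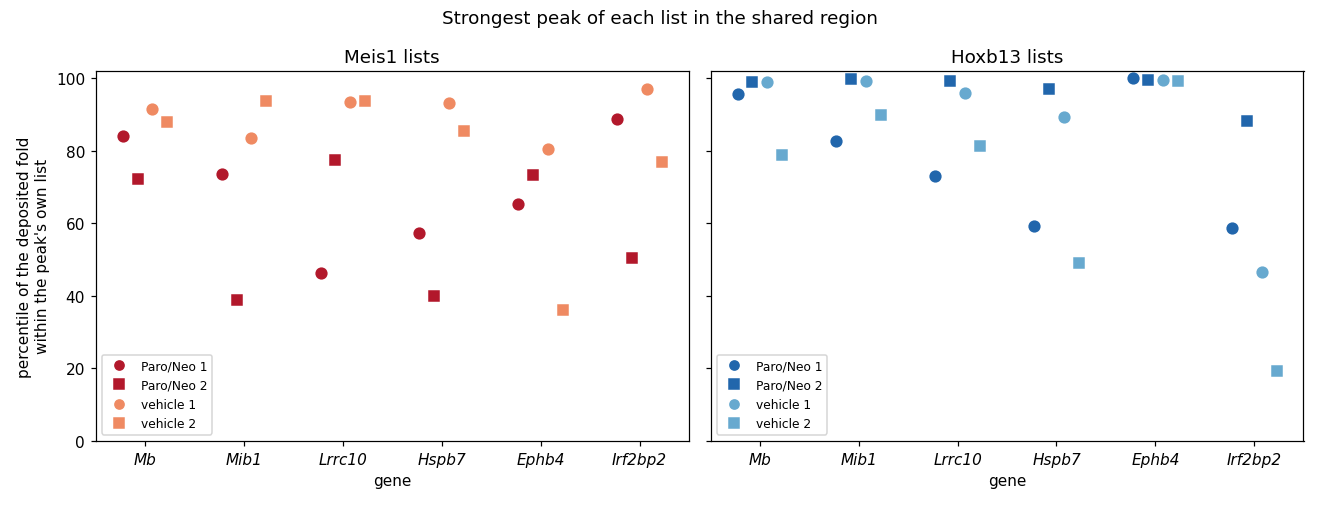
Percentile of the deposited fold of the strongest peak of each list in the shared region, within that peak's own list (y axis), for Meis1 lists on the left and Hoxb13 lists on the right; circles are replicate 1 and squares replicate 2. All 4 Hoxb13 lists place Ephb4 at 99.1 or higher, whereas those of Irf2bp2 range from 19.4 to 88.2 in these lists.

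At Mib1 (chromosome 18, 10725625 to 10818578) all shared peaks lay deep inside the gene. The Meis1 stretch, 10784296 to 10784529, is 58671 to 58904 bp from the gene end of lower coordinate. Meis1 peaks ranked 406 of 1541 and 627 of 1025 in Paro/Neo, against 588 of 3529 and 203 of 3176 in vehicle. The stretch under all 4 Hoxb13 lists measured 1983 bp, from 10780119 to 10782101. Its peaks ranked 143 of 821 and 40 of 16963 in Paro/Neo, against 38 of 5202 and 114 of 1121 in vehicle, so that the long lists placed it among their strongest 40. Vehicle replicate 1 had 4 Hoxb13 peaks in the region, and 1 of these, 10784090 to 10784844, covered the Meis1 stretch. A Hoxb13 region at the lower gene end, 10725332 to 10726372, was called in Paro/Neo replicate 2 and vehicle replicate 1 and in no Meis1 library.

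At Ephb4 (chromosome 5, 137350109 to 137374522, plus strand) the Hoxb13 peaks had the highest percentile of the 6 genes in 3 of the 4 Hoxb13 lists. In Paro/Neo replicate 2 the peak at Mib1 stood higher (99.8 against 99.5). The stretch under all 4 Hoxb13 lists, 137348687 to 137348991, lies -1422 to -1118 bp from the start site. The Hoxb13 peaks had deposited folds of 12.38 and 6.03 in Paro/Neo replicates 1 and 2, against 7.65 and 7.80 in vehicle replicates 1 and 2. They ranked 2 of 821 and 87 of 16963 in Paro/Neo, against 20 of 5202 and 11 of 1121 in vehicle. The Paro/Neo replicate 1 peak was 319 bp wide, at width percentile 44.4 of its list. Meis1 peaks at the start site ranked 537 of 1541 and 276 of 1025 in Paro/Neo, against 691 of 3529 and 2032 of 3176 in vehicle. A further Hoxb13 region past the 3′ end, 137375716 to 137378228, was called in Paro/Neo replicate 2 and both vehicle libraries.

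At Irf2bp2 (chromosome 8, 126588296 to 126593986, minus strand) Meis1 lay upstream of the start site and Hoxb13 over the gene. The Meis1 stretch, 126595478 to 126595656, is -1670 to -1492 bp from the start site. Its peaks ranked 177 of 1541 and 510 of 1025 in Paro/Neo, against 108 of 3529 and 734 of 3176 in vehicle. Stretches of 409 and 144 bp under all 4 Hoxb13 lists lay within the gene, 1006 to 1414 and 2503 to 2646 bp after the start site. The strongest Hoxb13 peaks ranked 340 of 821 and 1998 of 16963 in Paro/Neo, against 2785 of 5202 and 904 of 1121 in vehicle, which makes this the gene with the lowest Hoxb13 percentiles of the 6. A peak of 3 Hoxb13 lists, all but vehicle replicate 2, covered the start site.

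Ranks come from lists of unequal length and are not compared between groups. When only the strongest 821 peaks of each list were kept, as many as the shortest list holds, a region of all 8 lists remained at 3 of the 6 genes, Mb, Mib1 and Hspb7. Lrrc10 was lost through the Meis1 peak of Paro/Neo replicate 1 at rank 827, just outside that limit. At Ephb4 the Meis1 peak of vehicle replicate 2 fell outside it, and at Irf2bp2 the Hoxb13 peaks of Paro/Neo replicate 2 (rank 1998) and of both vehicle libraries did.

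The length under Meis1 peaks was lower in both Paro/Neo libraries than in both vehicle libraries at 4 of the 6 genes, where 48.5% of the 610 merged regions with a peak of all 4 Meis1 lists showed the same order and 3.11% the opposite one. At Mb, Meis1 peaks covered 381 and 254 bp in Paro/Neo replicates 1 and 2, against 757 and 887 bp in vehicle replicates 1 and 2. The groups did not overlap, and the second peak inside the gene, present in vehicle alone, is part of the difference of -1.40 on the log2 scale. Mib1 had 265 and 234 bp in Paro/Neo against 331 and 312 bp in vehicle, a difference of -0.37. At Irf2bp2 the lengths were 271 and 192 bp in Paro/Neo and 304 and 457 bp in vehicle, a difference of -0.71. Lrrc10 had 212 and 273 bp in Paro/Neo against 275 and 298 bp in vehicle, a difference of -0.25. These 4 genes share an exact two-sided permutation p of 0.333, the smallest that 2 against 2 libraries can give, so no difference can pass 0.05. The median difference over the 610 regions was -0.23. At Hspb7 (-0.16, exact p = 0.667) and Ephb4 (-0.04, exact p = 1) the groups overlapped. The sign at Ephb4 turned without Paro/Neo replicate 2 (0.33) or without vehicle replicate 1 (0.08), and without that vehicle library Hspb7 stood at 0.00. With the second Meis1 replicates exchanged between groups, as their deposited names have it, the differences were 0.41 at Mb, 0.05 at Mib1, 0.24 at Ephb4 and 0.54 at Irf2bp2, while Lrrc10 (-0.12) and Hspb7 (-0.14) kept their sign.

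The length under Hoxb13 peaks overlapped between the groups at all 6 genes. Over the 449 merged regions with a peak of all 4 Hoxb13 lists, 1.56% were lower and 3.34% higher in both Paro/Neo libraries. At Mb the peaks covered 1664 and 10409 bp in Paro/Neo replicates 1 and 2, against 6485 and 1396 bp in vehicle replicates 1 and 2. Irf2bp2 had 1685 and 7399 bp in Paro/Neo against 3342 and 890 bp in vehicle, with the highest difference of the 6, 1.03 on the log2 scale (exact permutation p = 0.667). Lrrc10 was the gene with the closest values, 5123 and 9216 bp in Paro/Neo against 8246 and 6302 bp in vehicle (-0.07, exact permutation p = 1). In each of the 6 genes the longest list, Paro/Neo replicate 2, covered the most bases, and vehicle replicate 1, the next longest, came second. Peaks of Paro/Neo replicate 2 set both ends of the region at Mb, Hspb7, Ephb4 and Irf2bp2. At Mib1 and Lrrc10 they set the end of higher coordinate. That this library covered the most bases was thus largely fixed by the choice of regions. Nothing is read from differences that rest on these Hoxb13 lengths. Differences were 0.47 at Mb, 0.37 at Mib1, 0.04 at Ephb4 and 0.03 at Hspb7 (exact permutation p from 0.667 to 1). Without Paro/Neo replicate 2 they became -0.85 at Mb, -0.57 at Mib1, -1.59 at Ephb4, -2.01 at Hspb7 and -0.03 at Irf2bp2. Without vehicle replicate 2 they were -0.64 at Mb, -0.42 at Mib1, -0.72 at Ephb4 and -0.52 at Hspb7. At Lrrc10 the sign turned without Paro/Neo replicate 1 (0.35) or without vehicle replicate 1 (0.12). The median over the 449 regions was 0.12. The difference between the Meis1 and Hoxb13 effects had exact permutation p-values from 0.278 to 0.944 over the 6 genes, where the smallest that the design allows is 0.0556. List length moved with these values, and its part in them was not tested.

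**Figure D4:**
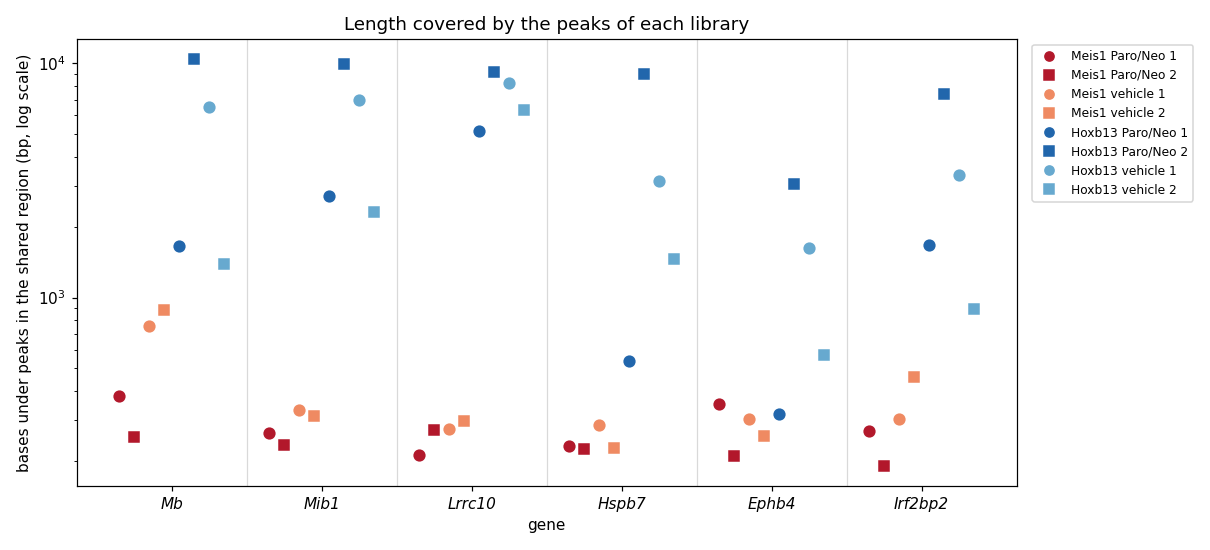
Bases under peaks of each library within the shared region (y axis, log scale, in bp) at the 6 genes, with Meis1 libraries in reds and Hoxb13 libraries in blues, Paro/Neo dark and vehicle light; circles are replicate 1 and squares replicate 2. Meis1 values lie between 192 and 887 bp, and Hoxb13 Paro/Neo replicate 2 is the highest point at every gene. Peaks of that library helped to set the regions, so its place was largely fixed by the choice of regions.

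Relatives of the 6 genes were examined in lists chosen by pathway or family, with earlier results of these data known. The 6 genes pass every such count by choice, so the counts given are of the other genes of each list. Of 23 other Notch signalling genes, 2 had a Meis1 region in all 4 libraries, where 1.75% of all genes did: Maml3, a coactivator of the Notch transcription complex, and Heyl, a target gene. Hoxb13 regions in all 4 libraries lay at 2 of the 23, Hes1, a Notch target, and Numb, a Notch inhibitor, where 2.84% of all genes had one. In at least 2 Hoxb13 libraries the count was 16 of 23, against 22.9% of all genes, and it was 6 without Paro/Neo replicate 2, against 6.56%. Among 20 other Eph receptors and ephrins, Epha1, Efna5 and Efnb3 had a Meis1 region in all 4 libraries (1.75% of all genes). A Hoxb13 region in all 4 lay at 0 of the 20 (2.84% of all genes). Efnb2, which encodes the ligand of Ephb4, was the single one of the 20 with a Hoxb13 region in at least 2 libraries (22.9% of all genes). Without Paro/Neo replicate 2 the count was 0 (6.56% of all genes).

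Beside Hspb7, 9 genes were examined, the other small heat shock proteins and Bag3, a partner of HSPB8. Of these, 0 had a Meis1 region in at least 2 libraries (6.19% of all genes). Hoxb13 regions in at least 2 libraries lay at 6 of the 9 (22.9% of all genes), including Cryab and Hspb2, which share 1 region (chromosome 9, 50752198 to 50753375), and at 0 of the 9 without Paro/Neo replicate 2 (6.56% of all genes). Of 7 other globins and fatty acid binding proteins, Fabp3 and Fabp4 had Hoxb13 regions in all 4 libraries (2.84% of all genes). Meis1 regions in at least 2 libraries lay at 0 of the 7 (6.19% of all genes). Of 7 other leucine-rich repeat and leiomodin genes, Lrrc3b had a Meis1 region in all 4 libraries (1.75% of all genes). Lmod2, which lengthens thin filaments, had a Hoxb13 region in all 4 (2.84% of all genes). Of 7 other genes of the Irf2bp2 family and its partners, 6 had a Hoxb13 region in at least 2 libraries (22.9% of all genes), but 1, Tead1, without Paro/Neo replicate 2 (6.56% of all genes). None of these 7 had a Meis1 region in at least 2 libraries (6.19% of all genes).

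The genes with a region of all 8 lists, ordered by the mean percentile of the strongest peak over the 8 lists, began with Dusp1, which encodes a phosphatase of MAP kinases, at 89.9. Mb followed at 88.5, Mib1 at 82.7, Lrrc10 at 82.5 and Ephb4 at 81.6, and Hspb7 (71.3) and Irf2bp2 (65.7) lay lower. Cct2 and Srarp meet the rule through the regions of Lrrc10 and Hspb7. The next others were Myadm (72.1), Prr11 and Ska2 (1 region, 69.2), Ssbp2 (68.4), Hip1 (68.3), Plekhf1 (67.7) and Evi5l (61.7). The region of Dusp1 was 6970 bp wide and held no base under all 8 lists. Those from Myadm to Evi5l were 718 to 1201 bp wide and held 13 to 209 such bases. Just outside the rule, 22 regions held a peak of 7 lists. The missing list was a Meis1 list in 15 of them, Hoxb13 Paro/Neo replicate 1 in 5 and Hoxb13 vehicle replicate 2 in 2. Some of the 15 lay at the bottom of the ranks. At Cmss1 and Filip1l, and wherever no protein-coding gene lay within 5 kb, mean percentiles were 0.7 to 2.0 in the other 7 lists. The 22 also included regions at Gse1 (mean percentile 96.8 in the other 7 lists, Hoxb13 vehicle replicate 2 missing), at Ldb3, a Z-disc gene (89.8), and at Tnnt2, cardiac troponin T (80.5), both without Meis1 Paro/Neo replicate 2.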

How the data were processed

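ChIP-seq peak lists of 8 libraries were analysed, and the 8 inputs were not used here. Per the submitters' processing notes, FastQC 0.11.5, Bowtie2, Picard 1.127, MACS2 and HOMER were used with mm10; peak-calling options, controls and filters are not stated in the labels. Each library has its own deposited list, which gives a fold ratio, −log10 p and −log10 q per peak, all the authors' own values. The deposited score equals 10 times the −log10 q, rounded down, in 100% of peaks and was not used further. Folds ranked peaks within their own list only. Chromosomes 1 to 19, X and Y were kept. Genes, start sites and promoter windows came from RefSeq (GRCm38.p6), without exons. Lengths under peaks were compared by exact two-sided permutation of mean log2 values over 6 orders, with Python 3.11.15. limma 3.58.1 was an alternative over all regions of an antibody. It was tried on simulated data with equal noise in all libraries and large shifts. These lists differ from that setting, so the simulation does not show its power here. The 6 genes, gene lists and tests were chosen with earlier results of these data known. Besides the 6, the genes named were the first 10 others with a region of all 8 lists by mean fold percentile, and the nearest neighbours; list genes and regions of 7 lists were named after their values were seen. Alternatives were a stricter q, equal list lengths, other merging and gene windows, a replicate block and leaving out each library.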

Additional observations from a re-analysis of the deposited data

How the results depend on the processing

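Against 18 regions, 22 genes and 6 members with a peak of all 8 lists, peaks of −log10 q of at least 2 gave 11 regions and 14 genes, and the strongest 821 peaks of each list gave 4 regions, 5 genes and 3 members. Requiring a base under all 8 lists, an alternative chosen after seeing the data, gave 14 genes and 1 member, Mb. Merging at 50 bp or across gaps of 200 bp changed none of these counts. The gene body alone gave 18 genes and 6 members, 10 kb on either side 24 genes and 6 members, and 1 kb around the gene ends 16 genes and 5 members, without Mib1. Leaving out 1 library at a time, with a peak asked of the remaining lists alone, gave 14 to 23 regions, 16 to 29 genes and 2 to 6 members. For the length under peaks (log2, Paro/Neo minus vehicle), exchanging the second Meis1 replicates turned the sign at Mb (0.41), Mib1 (0.05), Ephb4 (0.24) and Irf2bp2 (0.54). Leaving out 1 library gave Meis1 ranges of -1.69 to -1.10 at Mb, -0.46 to -0.28 at Mib1, -0.43 to -0.07 at Lrrc10, -1.0 to -0.41 at Irf2bp2, -0.32 to 0.00 at Hspb7 and -0.41 to 0.33 at Ephb4. The Hoxb13 ranges crossed 0 at each gene: -0.85 to 1.79 at Mb, -0.57 to 1.30 at Mib1, -0.49 to 0.35 at Lrrc10, -2.01 to 2.07 at Hspb7, -1.59 to 1.67 at Ephb4 and -0.03 to 2.10 at Irf2bp2. The causes were not tested. The stricter q left no Hoxb13 value at Hspb7. With limma over all regions no member passed in either antibody (Benjamini-Hochberg adjusted p from 0.177 to 0.999). Of the 610 Meis1 regions 4 passed, and 75 had an unadjusted limma p under 0.05. For Meis1 that p was 0.00271 at Mb and 0.0583 or higher at the other members. Of the 449 Hoxb13 regions 0 passed, with 0 at an unadjusted p under 0.05. The replicate numbers are shared between groups, but nothing in the labels ties them to an animal or day. With the replicate block, limma gave -1.40 at Mb for Meis1 (adjusted p = 0.196), passed 3 Meis1 and 0 Hoxb13 regions and changed no call at the members. Deviations of same-numbered Hoxb13 libraries correlated at -0.41, and a crossed pairing, added after seeing the data, also passed 0 regions, with 9 at an unadjusted p under 0.05.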

Other observations

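Regions with a peak of all 8 lists also lay at the bottom of the ranks. The region at Cdk8 (chromosome 5, 146260934 to 146261333) and 2 regions with no protein-coding gene within 5 kb (chromosome 17, 39843016 to 39848824, and chromosome 9, 2999991 to 3002288) had mean fold percentiles of 1.2, 0.9 and 0.7. At Mb, 216 of 10409 bp lay under a peak of all 8 lists, against 5657 of 5809 bp in the region on chromosome 17.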
